A study of Mus musculus with 13 samples.

Results

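The methylation of female mouse induced pluripotent stem cells (iPSCs) labelled XaXa, for 2 active X chromosomes, was set against that of mouse embryonic fibroblasts (MEFs) labelled male. Fibroblasts are the somatic cell type from which such cells are commonly reprogrammed. The comparison used 4 of the 13 reduced representation bisulfite sequencing (RRBS) libraries of the series, XaXa 7 and XaXa 8 on one side and MEF 4 and MEF 5 on the other. RRBS samples CpGs in short fragments that a restriction enzyme releases, so CpG-rich sequence is read most. Autosomes were cut into 1 kb tiles, and the level of a tile is its methylated reads over all its reads, summed over CpGs. Of 539151 autosomal tiles with a read in any library, 104876 had at least 3 CpGs and 10 reads in each of the 4 libraries and were compared. Feeder cells had been depleted from the iPSCs. The labels name no reprogramming factors, passage, strain or clone, and nothing in them says that libraries of a group came from separate cultures, so p-values take in no more than library-to-library spread, which may be technical. XaXa libraries are labelled female and MEF libraries male, so by the labels sex and cell type cannot be told apart in this comparison. Libraries not compared here served as a view of the same tiles from outside: 4 female iPSC libraries labelled XO, 3 male iPSC libraries, and 2 libraries of male cells, 1 labelled SSEA1-negative and 1 SSEA1-positive (SSEA1 is a carbohydrate antigen that mouse cells gain on the way to pluripotency).

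Reads summed over CpGs came to 20259444 in XaXa 7 and 143148634 in XaXa 8, against 11337174 in MEF 4 and 25835728 in MEF 5, and the median reads per compared tile were 80, 571, 39 and 88 in the same libraries. The library labelled male MEF 5 had fewer reads on Y, 0.0219% of autosomal reads, than MEF 4 with 0.0913% and than the female XaXa libraries with 0.0485% and 0.0464%. It thus goes against its label, and the mean differences and the counts of called tiles, called promoters, called windows and retained tiles are also given without it. At the distal upstream region and promoter of Pou5f1, the pluripotency factor whose regulatory DNA is methylated in fibroblasts, the level was 7.14% and 5.83% in XaXa 7 and 8 against 57.1% and 63.1% in MEF 4 and 5, from 28, 635, 14 and 65 reads, as the cell type labels have it. Without MEF 5 this difference was -50.7 points and missed the threshold of a call. Outside the comparison, male iPSC 1, 2 and 4 were also low at Pou5f1, at 11.8%, 15.2% and 6.25%. The XO libraries 3, 5, 6 and 9 were higher, at 64.9%, 35.7%, 37.0% and 25.9%, with XO 3 above both MEF libraries.

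In mammals, CpG methylation is copied onto the new strand at each cell division by Dnmt1 and its partner Uhrf1, and new methylation is laid down by Dnmt3a and Dnmt3b. CpG-rich promoters mostly stay free of it, while gene bodies and intergenic DNA of somatic cells carry it on most molecules. Mouse pluripotent cells with 2 active X chromosomes are known for low methylation across the genome, including at imprinted control regions, where methylation inherited from a single parent is otherwise kept for life. Promoters of germ cell genes are a well known class of CpG-rich promoters that somatic cells methylate.

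The promoters below show both directions of change in bases. Each sequence runs from 250 bases before to 50 bases after the transcription start listed for the gene in RefSeq (GRCm38.p6), 5′ to 3′ on the gene's strand, and capitals mark the CpGs read in all 4 libraries. Jade1 (chr3:41555484-41555783, plus strand) is shown as the promoter with the largest fall. It had 18 CpGs, 4 of them read in all libraries.

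Jade1: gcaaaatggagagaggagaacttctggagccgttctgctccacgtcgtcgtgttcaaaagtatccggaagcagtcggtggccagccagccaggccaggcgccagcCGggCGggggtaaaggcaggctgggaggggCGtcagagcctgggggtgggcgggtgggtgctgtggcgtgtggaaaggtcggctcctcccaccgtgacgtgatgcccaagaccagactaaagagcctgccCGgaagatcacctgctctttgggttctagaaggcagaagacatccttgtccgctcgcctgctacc

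Rpl10l (chr12:66284352-66284651, minus strand), a testis paralogue of a ribosomal protein gene, and Slc25a31 (chr3:40708621-40708920, plus strand), the ADP/ATP carrier of male germ cells, are the members of a list of germline genes with the largest falls. They had 13 and 22 CpGs, 3 and 7 of which were read in all libraries.

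Rpl10l: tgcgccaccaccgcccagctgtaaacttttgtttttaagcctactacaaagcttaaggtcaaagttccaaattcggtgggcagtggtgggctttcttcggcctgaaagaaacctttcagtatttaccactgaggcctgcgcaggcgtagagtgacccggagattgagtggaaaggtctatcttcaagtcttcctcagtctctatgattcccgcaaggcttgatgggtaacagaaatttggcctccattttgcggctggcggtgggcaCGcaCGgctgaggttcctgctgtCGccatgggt
Slc25a31: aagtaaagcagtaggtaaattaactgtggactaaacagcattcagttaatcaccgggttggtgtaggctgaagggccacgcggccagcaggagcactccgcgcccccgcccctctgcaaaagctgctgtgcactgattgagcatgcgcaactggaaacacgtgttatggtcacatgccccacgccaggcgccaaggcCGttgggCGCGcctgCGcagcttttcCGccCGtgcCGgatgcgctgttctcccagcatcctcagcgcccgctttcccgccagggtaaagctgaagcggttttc

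Cavin4 (chr4:48663264-48663563, plus strand), Abcc9 (chr6:142702225-142702524, minus strand) and Ogfod2 (chr5:124112071-124112370, plus strand) are shown as the promoters with the largest rises. They had 7, 16 and 32 CpGs, with 1, 3 and 5 of them read in all 4 libraries, so Cavin4 rests on a CpG-poor promoter. Since at least 3 CpGs were required in each library, the Cavin4 levels of the libraries come in part from different CpGs.

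Cavin4: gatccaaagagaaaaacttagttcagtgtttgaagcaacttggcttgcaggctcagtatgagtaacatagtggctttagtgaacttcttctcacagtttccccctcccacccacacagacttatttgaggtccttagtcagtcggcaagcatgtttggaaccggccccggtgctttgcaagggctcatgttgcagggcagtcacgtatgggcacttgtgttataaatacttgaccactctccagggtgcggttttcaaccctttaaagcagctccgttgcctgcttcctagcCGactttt
Abcc9: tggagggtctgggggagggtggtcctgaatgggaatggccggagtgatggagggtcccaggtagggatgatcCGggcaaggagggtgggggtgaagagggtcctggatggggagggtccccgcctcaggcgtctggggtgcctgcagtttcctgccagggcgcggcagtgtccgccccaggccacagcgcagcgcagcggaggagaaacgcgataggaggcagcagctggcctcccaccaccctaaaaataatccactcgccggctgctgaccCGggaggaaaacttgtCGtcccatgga
Ogfod2: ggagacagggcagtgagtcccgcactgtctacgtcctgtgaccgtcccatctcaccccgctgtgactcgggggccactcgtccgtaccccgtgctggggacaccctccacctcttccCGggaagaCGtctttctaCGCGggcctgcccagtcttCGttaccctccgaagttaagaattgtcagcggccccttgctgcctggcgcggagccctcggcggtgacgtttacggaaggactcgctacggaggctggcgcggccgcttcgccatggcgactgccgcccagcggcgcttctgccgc

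Autosomal methylation was far lower in XaXa iPSCs than in fibroblasts. The mean tile level was 36.3% in XaXa 7 and 29.3% in XaXa 8, against 60.2% in MEF 4 and 61.8% in MEF 5. Group means were 32.8% ± 4.91 in XaXa and 61.0% ± 1.14 in MEF (SD, n = 2 each), a difference of -28.2 points and a ratio of 0.538. Both XaXa libraries lay below both MEF libraries, and the gap between the XaXa libraries was small beside the difference. With 2 libraries against 2, an exact two-sided permutation test has 6 splits and can give no p below 0.333, which is the p it gave. The difference was -27.4 points without MEF 5. It had the same sign on all 19 autosomes, between -29.8 points on chromosomes 10 and 16 and -26.6 points on chromosome 19.

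The loss changed the shape of the distribution more than its lower end. Tiles above 80% made up 0.854% and 0.0458% of tiles in XaXa 7 and 8, against 39.4% and 42.1% in MEF 4 and 5. Tiles between 20% and 80% made up 70.4% and 65.6% in XaXa 7 and 8, against 39.2% and 38.1% in MEF 4 and 5. The share under 20% was 28.7% and 34.4% in XaXa and 21.4% and 19.8% in MEF. In the XaXa libraries the methylated part of the genome thus sat at intermediate levels, as a broad hump, and not at 0.

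**Figure D1:**
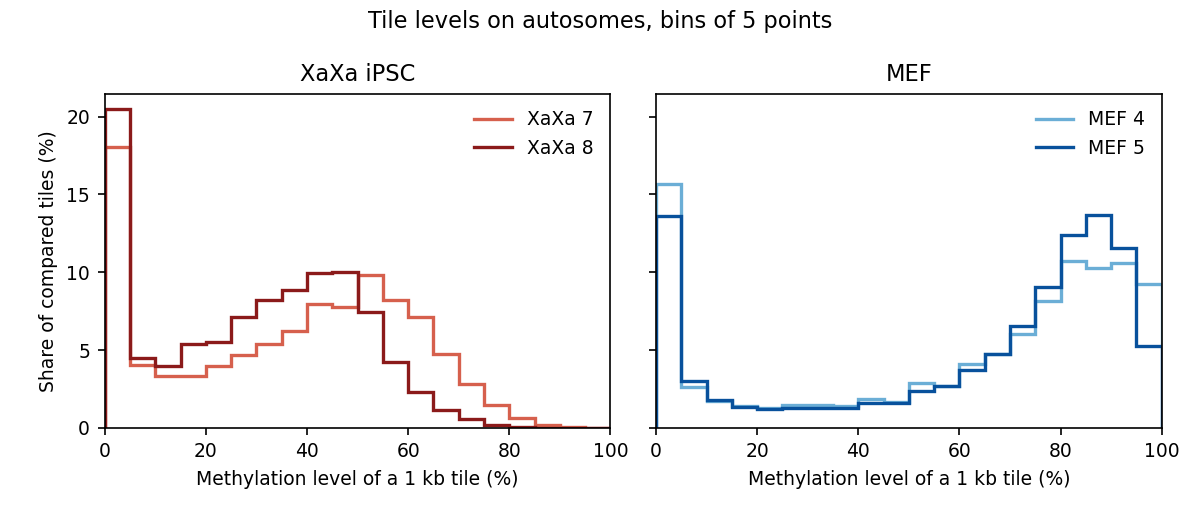
Share of the 104876 compared tiles (y axis, %) by methylation level (x axis, %, bins of 5 points) in the XaXa libraries on the left and the MEF libraries on the right, 1 line per library. The hump of MEF libraries lies above 80%, where 39.4% and 42.1% of tiles are, while XaXa libraries hold 0.854% and 0.0458% there.

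A quasi-binomial model fitted to the methylated and unmethylated reads of each tile called 71108 tiles lower in XaXa, which is 67.8% of those tested, with a Benjamini-Hochberg adjusted p below 0.05 and 10 points or more between group means. It called 849 tiles higher, or 0.810%. In 97.9% of the lower tiles and 99.3% of the higher ones, the XaXa and MEF libraries did not overlap. Without MEF 5 the model called 39696 tiles lower, 39337 of them among the 71108, and without the deep library XaXa 8 it called 49907. Both XaXa libraries lay below both MEF libraries in 79246 tiles, or 75.6%, and above them in 4381, or 4.18%.

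How much was lost depended on the level in fibroblasts and on CpG number. Tiles with a MEF mean of at least 80% (43042 tiles) averaged 48.8% and 40.1% in XaXa 7 and 8 against 88.9% and 87.7% in MEF 4 and 5, a ratio of 0.504. In tiles with a MEF mean of 20% to 80% (40525 tiles) the ratio was 0.577, with 35.7% ± 5.69 in XaXa and 61.9% ± 3.15 in MEF (SD, n = 2 each). Tiles under 20% in MEF (21309 tiles) were at 3.79% ± 0.890 in XaXa and 4.22% ± 1.31 in MEF (SD, n = 2 each, exact permutation p = 0.667), a difference smaller than the SD of either group. Since MEF values define these classes, MEF levels at either end are pulled outward. The SSEA1 libraries, which do not define them, averaged 85.1% in SSEA1-negative and 84.3% in SSEA1-positive cells in the first class.

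Within a class, tiles with many CpGs kept less. Among tiles of at least 80% in MEF, those with 3 to 5 CpGs read were at 46.6% ± 5.86 in XaXa and 88.5% ± 1.17 in MEF, and those with 21 or more were at 34.5% ± 6.40 in XaXa and 88.0% ± 0.389 in MEF (SD, n = 2 each). Nearly all of the CpG-rich ones were called lower, 4787 of 4808, beside 9917 of 10353 tiles with 3 to 5 CpGs. In the 20% to 80% class the ratio of XaXa to MEF went down in the same order, being 0.623, 0.596, 0.531 and 0.358 for 3 to 5, 6 to 10, 11 to 20 and at least 21 CpGs. A CpG in a CpG-rich tile was thus left with a smaller share of its fibroblast methylation in both classes.

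**Figure D2:**
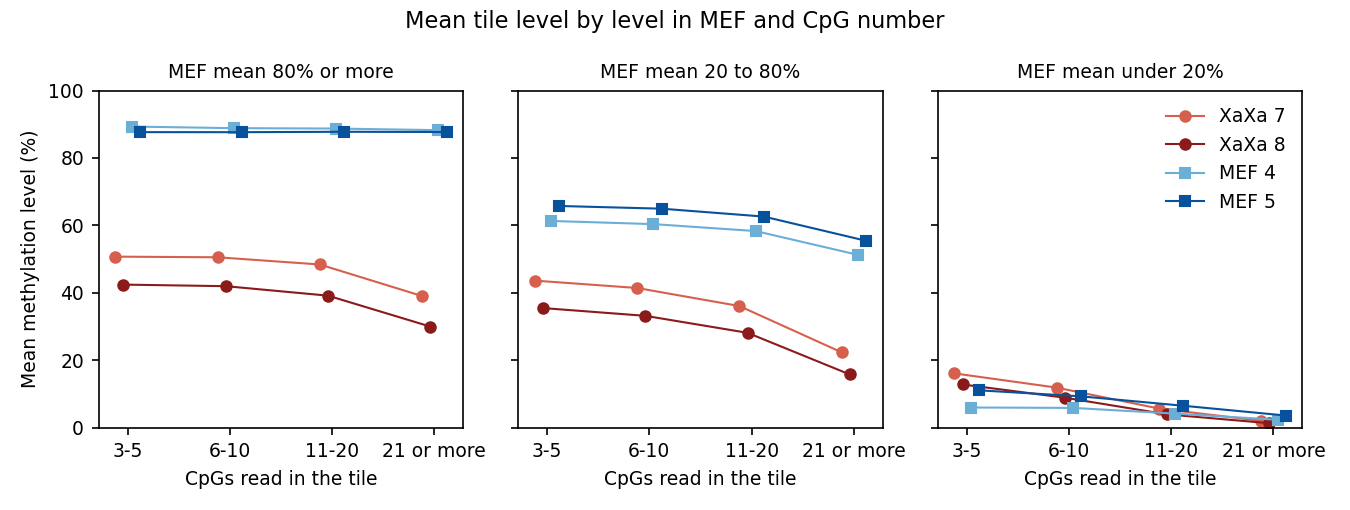
Mean tile level (y axis, %) by number of CpGs read in the tile (x axis), in panels for tiles at 80% or more, at 20% to 80% and under 20% in MEF, with 1 line per library. In the first panel XaXa levels run from 46.6% at 3 to 5 CpGs to 34.5% at 21 or more, averaged over the 2 libraries, while MEF levels stay near 88%.

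The loss also varied from region to region, and in the same way in both XaXa libraries. Over 805 bins of 1 Mb with at least 20 tiles at 80% or more in MEF, the mean level of these tiles ran from 33.4% to 63.0% in XaXa 7 and from 27.3% to 53.7% in XaXa 8, but only from 82.2% to 92.7% in MEF 4 and from 83.4% to 92.8% in MEF 5. Bins were ranked by XaXa 7 and then read in libraries that the ranking did not use. The 10 lowest bins averaged 30.3% in XaXa 8 and the 10 highest 50.9%, beside a median of 39.9% over all bins, and each of them lay on its own side of that median. In MEF 5 the same bins averaged 88.9% and 88.7%. The 3 male iPSC libraries averaged 51.8% to 59.3% in the lowest bins and 80.6% to 83.8% in the highest, beside 67.8% to 72.6% over all bins, while the SSEA1 libraries averaged 86.6% to 87.1% and 85.1% to 86.0%. Regions that kept more in XaXa thus also had more in male iPSCs and did not stand out in SSEA1 libraries or fibroblasts.

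The lowest bins in XaXa 7 were at 43 to 44 Mb of chromosome 19, with 33.4% in XaXa 7 and 29.4% in XaXa 8, at 133 to 134 Mb of chromosome 4 with 35.8% and 27.3%, and at 123 to 124 Mb of chromosome 5 with 37.2% and 30.2%. Among the highest were 93 to 94 Mb of chromosome 3, with 63.0% in XaXa 7 and 46.8% in XaXa 8, and 75 to 76 Mb of chromosome 7 with 62.7% and 51.5%. Low bins were richer in genes and in CpGs. They held a median of 15 genes whose promoter could be placed (9 to 35) and 11 CpGs per compared tile, against 3 genes (0 to 5) and 8.25 CpGs in the high bins, and 7 genes and 9 CpGs over all bins, counted outside chromosome 18, whose genes were not placed. The part of CpG number in the regional difference was not tested.

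**Figure D3:**
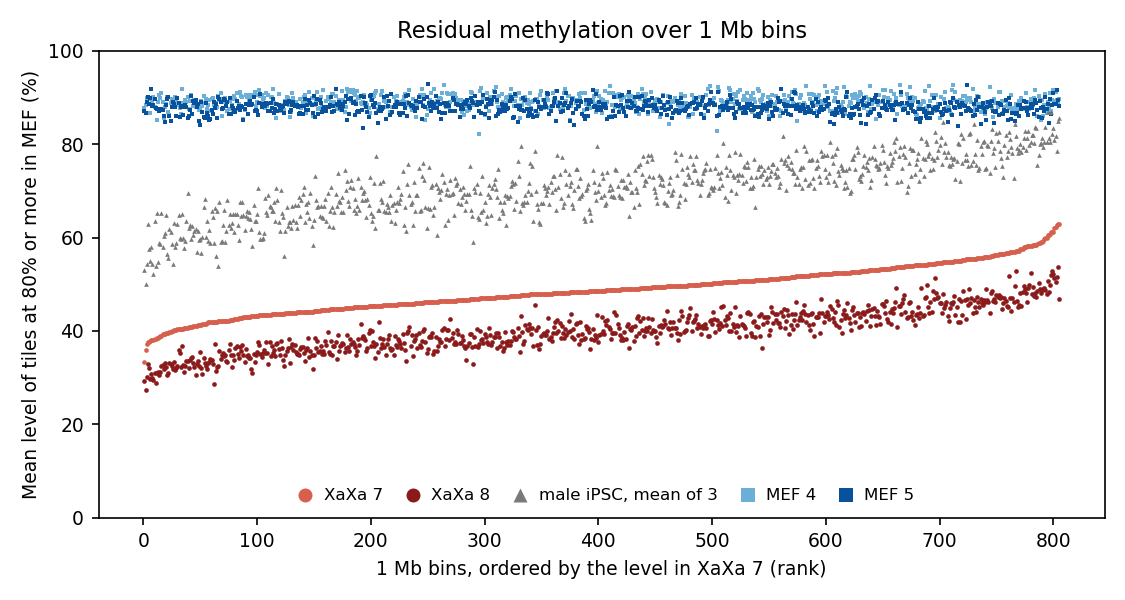
Mean level of tiles at 80% or more in MEF (y axis, %) in each of 805 bins of 1 Mb, ordered by the level in XaXa 7 (x axis, rank), for XaXa 7, XaXa 8, the mean of 3 male iPSC libraries, MEF 4 and MEF 5. XaXa 8 and male iPSCs go up along the order that XaXa 7 sets, from 30.3% in the 10 lowest bins to 50.9% in the 10 highest for XaXa 8, while MEF 5 stays at 88.9% and 88.7%.

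The largest falls were at single tiles with nearly no methylation in XaXa and nearly full methylation in MEF. They were taken from 14243 lower tiles with at least 5 CpGs and 50 reads in each library and no overlap of the groups. The first, on chromosome 19 at 43922047 to 43922603 (mm9), had 20 CpGs and was at 3.28% and 3.31% in XaXa 7 and 8 against 94.6% and 96.1% in MEF 4 and 5, a difference of -92.1 points (quasi-binomial adjusted p = 1.28e-08). A second tile 10.2 kb from the promoter of Dnmbp, the gene of a guanine nucleotide exchange factor for Cdc42, lay on the same chromosome at 43964499 to 43964895, with 5.43% and 4.65% in XaXa against 96.5% and 95.3% in MEF. Both lie in the bin of lowest level. Next to each other on chromosome 12, at 109153011 to 109153950 and 109154026 to 109154972, 2 tiles between 86.7 and 87.7 kb from the Bcl11b promoter were at 3.92% and 3.33%, and 2.93% and 4.55%, in XaXa 7 and 8. In MEF 4 and 5 they were at 90.9% and 93.6%, and 94.3% and 96.8%.

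The other 6 tiles lay on chromosome 10 at 12329473 to 12329634, chromosome 15 at 79801182 to 79801758, chromosome 4 at 40776620 to 40776884, chromosome 1 at 95697107 to 95697354 and 34234788 to 34234994, and chromosome 8 at 44391103 to 44391583. Their XaXa levels were between 0% and 10.8% and their MEF levels between 89.4% and 96.6%. All 10 kept their call with any 1 library left out. The nearest placed promoter to the chromosome 1 tile at 95697107 was that of Ing5, a reader of histone H3 methylation, 3.19 kb away. In libraries outside the comparison, the 10 tiles were at no more than 31.6% in any XO or male iPSC library and at no less than 63.2% in an SSEA1 library, where read. They were thus low in all iPSC libraries and not in the SSEA1 libraries.

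Over all lower tiles, XaXa mostly lay below the other iPSCs too. Of 52918 lower tiles read in every iPSC library, 70% had both XaXa libraries below all 7 XO and male iPSC libraries. Over all 79310 tiles read in them it was 56.5%. XaXa values took part in choosing the lower tiles, so their excess over all tiles is no finding. Among 32357 tiles at 80% or more in MEF read in the same libraries, a class that XaXa values did not choose, the share was 77.4%. Median levels in the 71108 lower tiles were 44.5% and 35.6% in XaXa 7 and 8, 64.7% to 75% in XO, 68.2% to 73.6% in male iPSC, 81.2% in SSEA1-negative and 80.2% in SSEA1-positive cells, and 82.4% and 83.1% in MEF 4 and 5.

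Promoters were placed on the deposited CpGs by matching the spacing and sequence of their CpGs, and 6102 could be measured. Few were methylated in fibroblasts, and those few lost most of it. Of all promoters 266 were lower, or 4.36%, and 19 were higher, or 0.311%. Of the 96 promoters at 80% or more in MEF, 81 were lower, at a mean of 38.7% and 28.7% in XaXa 7 and 8 against 90.2% and 87.4% in MEF 4 and 5. The 5732 promoters under 20% in MEF were at 0.948% in XaXa and 1.76% in MEF. Without MEF 5, 213 of the 266 lower and 15 of the 19 higher promoters kept their call, and without XaXa 8 it was 120 and 10.

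Jade1, which encodes a scaffold of histone acetyltransferase complexes, fell furthest at the start shown above. It was at 3.66% and 1.33% in XaXa 7 and 8 against 100% and 92.9% in MEF 4 and 5, from 82, 904, 30 and 140 reads (quasi-binomial adjusted p = 0.00238). D1Pas1, a testis-expressed RNA helicase gene, was at 2.08% and 0% in XaXa against 97.0% and 90.7% in MEF. Rpl22, a ribosomal protein gene, was at 6.99% and 11.1% against 92.2% and 92.0%, and Slc30a3, the zinc transporter of synaptic vesicles, at 16.4% and 14.6% against 100% and 92.7%. The promoter of Dnajc5g overlaps that of Slc30a3 and shares its CpGs. Among the 10 largest falls there were also CN725425, Gm16206, 4933440J02Rik, Ddx19b and 2210417A02Rik, with differences between -86.9 and -81.5 points.

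All measured promoters of germ cell genes were lower in XaXa. Of 20 listed genes 12 were placed and 5 could be measured, and all 5 were lower, beside 4.36% of all promoters and 81 of the 96 at 80% or more in MEF, with a median difference of -77.9 points, beside -0.185 points over all promoters. The list was chosen with earlier results of these data known and supports nothing by itself. Rpl10l was at 14.7% and 5.45% in XaXa 7 and 8 against 82.5% and 100% in MEF 4 and 5 (quasi-binomial adjusted p = 0.0116). Slc25a31 was at 20% and 11.7% in XaXa against 100% and 90.2% in MEF. Mael, a factor of the piRNA pathway that silences transposons, was at 9.04% and 6.47% against 95.2% and 76.1%, and Ddx4, the germ cell RNA helicase Vasa, at 14% and 6.46% against 50% and 88.7%.

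Tex101, a surface protein of germ cells, kept the most of these 5. It was at 61.1% and 46.9% in XaXa 7 and 8 against 100% and 86.0% in MEF 4 and 5, at -39.0 points (quasi-binomial adjusted p = 0.0412), and its adjusted p was 0.257 without XaXa 8. Outside the comparison, Tex101 was at 68.3% to 81.1% in male iPSC, while Mael was at 18.4% to 23.9%.

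The 2 germline sequences above share a hexamer. The letters TCCCGC or GCGGGA, which E2F6, a repressor of germline promoters, is known to bind, occur once in Rpl10l and once in Slc25a31, with both strands searched, once in Ogfod2 and not in Jade1, Cavin4 or Abcc9. CACGTG, the E-box read by Max and Mga and the same on both strands, occurs once in Slc25a31 and in none of the other 5. Of all 6102 measured promoters 42.2% hold the first motif and 11% the second, of the 266 lower ones 21.1% and 13.9%, and of the 19 higher ones 26.3% and 10.5%. These are matches of letters within 300 bases and no more.

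Beside the Pou5f1 window, which was called lower, few pluripotency and fibroblast genes could be read. Of the placed promoters, Sox2, Fgf4 and Esrrb were the members of 20 pluripotency genes measured, and none was called. Sox2 was at 0% and 0.338% in XaXa against 0% and 2.30% in MEF. Fgf4 was at 0% in both XaXa libraries against 2.56% and 0% in MEF. Esrrb was at 20.8% and 15.4% in XaXa against 6.67% and 26.7% in MEF. Of 15 fibroblast genes only Vim, an intermediate filament gene, was measured, with 0% and 0.506% in XaXa against 0% and 3.70% in MEF, and was not called. A wider window at Sox2 differed by -3.66 points, under the 10 points of a call. In the window over Col1a1, which encodes a chain of type I collagen, the level was 16.1% and 11.7% in XaXa 7 and 8 against 4.76% and 1.89% in MEF 4 and 5. This was a rise of 10.6 points (quasi-binomial adjusted p = 0.0278). The call was lost without XaXa 7, without MEF 4 or without MEF 5. The windows of Nanog and Thy1 had too few reads.

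Tiles that resisted the loss were rare. Of 43042 tiles at 80% or more in MEF, 233 had an XaXa mean no more than 10 points below the MEF mean, which is 0.541% (95% Wilson interval 0.476 to 0.615). The share was smaller where reads were many, with 25 of 11391 tiles or 0.219% at 50 reads in each library and 4 of 2737 or 0.146% at 100. Without XaXa 8 the number was 1090, without XaXa 7 it was 118, and without MEF 5 it was 216. The limit cuts a continuum, since the 99th percentile of the difference in this class was -12.3 points and the 95th was -20.3. Several of the 233 tiles had the same layout on different chromosomes, with 7 CpGs over the same length. Examples are 61164649 to 61164933 on chromosome 17, 6056381 to 6056665 on chromosome 3 and 74193199 to 74193483 on chromosome 15. Whether they are copies of a repeated sequence was not tested, while the Wilson interval takes all tiles as independent.

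XaXa and MEF values chose these 233 tiles, so their level there is no finding, but that in other libraries is. Their medians were 91.3%, 90.9%, 91% and 88.6% in XO 3, 5, 6 and 9, and 90%, 92.2% and 92.0% in male iPSC 1, 2 and 4. The other 42809 tiles at 80% or more in MEF had medians of 72.2% to 79.8% in XO and 74.4% to 79.4% in male iPSC. In the SSEA1 libraries the medians were 84.8% and 84.5% in the 233 tiles and 86.7% and 86.0% in the others. Tiles that stayed methylated in XaXa were thus also the more methylated ones in the other iPSC libraries, which the choice did not use, and not in the SSEA1 libraries. None of the 233 tiles held a placed promoter, but just 0.388% of the others did, a share too small to set the 233 apart. The median number of CpGs was 8 in both. The retained share of the class was nonetheless uneven over CpG number. It was 0.338% with 3 to 5 CpGs, 0.913% with 6 to 10, 0.334% with 11 to 20 and 0.0832% with 21 or more.

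Within the comparison, tiles were chosen in 1 pair of libraries and read in the other. Of 1166 tiles at 80% or more in MEF 5 and no more than 10 points lower in XaXa 7, 16.9% were within 10 points in XaXa 8 against MEF 4, beside 2.85% of all 44943 tiles at 80% or more in MEF 5. With the other 3 pairings of libraries the shares were 9.25%, 43.6% and 48.5%, beside 1.34%, 5.99% and 8.28%. Most tiles kept in 1 pair of libraries were therefore not kept in the other. Tiles within 5 kb of a retained tile, themselves at 80% or more in MEF and not retained, were at 59.2% and 49.8% in XaXa 7 and 8, beside 48.6% and 39.9% over the class, and at 89.7% and 88.3% in MEF 4 and 5, beside 88.9% and 87.7%.

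Among 8325 tiles at 80% or more in MEF with at least 5 CpGs and 50 reads in each library, 8 had the highest XaXa level, which chose them. On chromosome 9 at 109012178 to 109012949, 14.2 kb from Plxnb1, the gene of a semaphorin receptor, the level was 90.2% and 78.8% in XaXa 7 and 8 against 94.4% and 98.1% in MEF 4 and 5. On chromosome 4 at 43556016 to 43556678, 18.8 kb from Tln1, the gene of an integrin linker, it was 84.8% and 79.3% in XaXa against 95.7% and 80.8% in MEF. A tile on chromosome 8 at 128400025 to 128400581 differed by -1.94 points and one on chromosome 13 at 70627247 to 70627498 by -6.09 points. The others lay on chromosome 8 at 109008246 to 109008979, chromosome 14 at 101983223 to 101983592, chromosome 4 at 148156397 to 148156827 and on chromosome 18. Even here 3 tiles were called lower, those on chromosomes 9 (-11.8 points) and 14 (-13 points) and the last one on chromosome 4 (-10.4 points), and each of these calls was lost without XaXa 8 or without MEF 5. In all 8 tiles XaXa 7 was above XaXa 8. In 6 of the 8, every male iPSC library was above XaXa 8. The tile on chromosome 18 was an exception among iPSCs, at 48.8% and 45.7% in XO 6 and 9.

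Against the overall loss, 849 tiles gained. Of them 634 were under 20% in MEF, or 2.98% of that class, and the other 215 were between 20% and 80%, or 0.531% of theirs. MEF values define these classes and enter the calls, so the split by MEF level is no finding. Tiles at 80% or more in MEF had little room to rise, and MEF levels under 20% are pulled down by the choice. Under 20% in MEF, 15% of tiles with 3 to 5 CpGs were higher (111 of 741), 10.5% of those with 6 to 10, 4.07% of those with 11 to 20 and 0.672% of those with 21 or more (92 of 13694). Over all compared tiles, without a cut on MEF, the shares were 0.763%, 0.942%, 0.964% and 0.443% in the same order. The part of the cut in the order within the class was not tested. In the tiles under 20% in MEF with 3 to 5 CpGs the mean was 16.1% and 12.9% in XaXa 7 and 8 against 6.03% and 11.1% in MEF 4 and 5. A placed promoter lay in 50 higher tiles, or 5.89%, beside 8.62% of all compared tiles. It lay in 38% of tiles under 20% in MEF, which have a median of 29 CpGs against 9 in the higher tiles.

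The count of gains is less firm than that of losses. Because falls make up most small p-values, the adjusted threshold let through unadjusted two-sided p-values up to 0.0358. A one-sided adjustment for rises alone, chosen after seeing the data, called 93 tiles, all among the 849. Without MEF 5 the model called 350 tiles higher, 274 of them among the 849, and without MEF 4 it called 463, with 437 of the 849. Of the 849 tiles, 167 kept their call with each library left out in turn.

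Libraries that took no part in the calls were high in the same tiles. Medians over the 849 tiles were 44.3% and 36.6% in XaXa 7 and 8, 55.0% to 72.5% in XO, 61.4%, 66.7% and 60.6% in male iPSC 1, 2 and 4, 10% in SSEA1-negative and 10.2% in SSEA1-positive cells, and 7.96% and 12% in MEF 4 and 5. All 3 male iPSC libraries were above both SSEA1 libraries in 679 of 762 higher tiles read in them, or 89.1%, beside 17.6% of all 90974 tiles. Among the 93 tiles of the one-sided test it was 80 of 89. XaXa 7 and 8 were below all 7 other iPSC libraries in 52.6% of the higher tiles read in every iPSC library, close to the 56.5% of all tiles.

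Choosing in 1 pair of libraries and reading in the other gave a further look. Of 583 tiles at least 30 points higher in XaXa 7 than in MEF 5, 83.9% were higher in XaXa 8 than in MEF 4, with a median of 21 points, beside 15.2% of all tiles. Chosen in XaXa 8 against MEF 5, 93.8% of 176 tiles were higher in XaXa 7 than in MEF 4, beside 15.5%, and chosen in XaXa 8 against MEF 4, 82.6% of 460 were higher in XaXa 7 than in MEF 5, beside 10.7%. Chosen in XaXa 7 against MEF 4, the shallowest library, it was 58.2% of 1338, beside 8.92%.

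The 12 largest gains with at least 5 CpGs and 50 reads in each library rose to intermediate levels. On chromosome 14 at 79700409 to 79701001, 0.442 kb from the promoter of Rgcc, a regulator of the cell cycle, the level was 61.5% and 44.1% in XaXa 7 and 8 against 0% and 2.65% in MEF 4 and 5, up by 51.5 points (quasi-binomial adjusted p = 5.87e-06, one-sided 0.00173). On chromosome 2 at 28770621 to 28770961, 1.23 kb from Barhl1, a homeobox gene of the nervous system, it was 60.1% and 47.0% in XaXa against 12.6% and 8.71% in MEF. The tile with the most reads, on chromosome 7 at 143694068 to 143695000, was at 56.1% and 52.8% against 14.6% and 15.1%, from 451 and 2358 reads in XaXa and 254 and 530 in MEF (one-sided adjusted p = 0.000335 in the quasi-binomial model).

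Others of the 12 lay between 122 and 410 kb from the nearest placed promoter, on chromosome 14 at 25720053 to 25720517 with 53.3% and 46.4% in XaXa 7 and 8 against 5.41% and 5.71% in MEF 4 and 5, on chromosome 13 at 72503406 to 72503954 with 60.9% and 69.6% against 11.5% and 16.9%, and on chromosome 19 at 25869135 to 25869324 with 67.9% and 60.9% against 17% and 28.6%. The first by size, on chromosome 17 at 49911236 to 49911606, was at 75% and 58% in XaXa but at 3.03% and 26.0% in MEF, and its one-sided adjusted p of 0.0655 in the quasi-binomial model missed the threshold. So did that of a tile on chromosome 10 at 125222597 to 125222820 (0.407), whose two-sided call was lost without MEF 4. The other 10 passed. Every XO 3, XO 5 and male iPSC library was above both MEF libraries in all 12, but XO 6 was at 5.22% in the tile of the Abcc9 promoter, where MEF 4 was at 5.56%, and XO 6 and 9 were at 2.33% and 3.61% in the tile on chromosome 16 at 64873079 to 64873724, where XaXa 7 and 8 were at 54.6% and 40.2% against 9.52% and 2.76% in MEF 4 and 5. That tile was not called in a fit over 11 libraries (quasi-binomial adjusted p = 0.102).

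**Figure D4:**
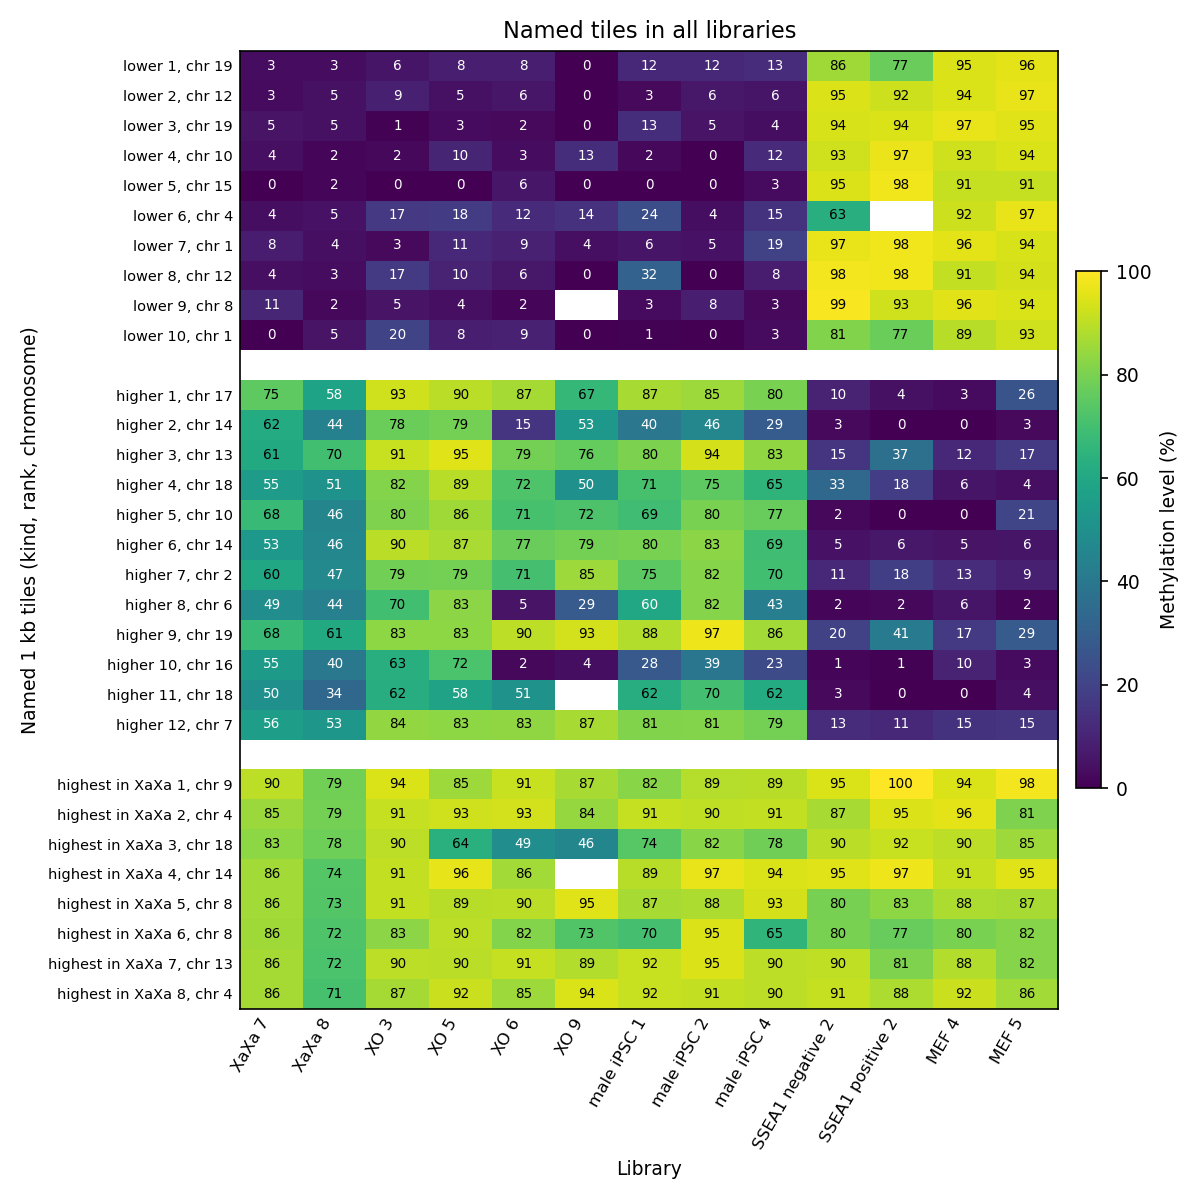
Methylation level (colour and printed value, %) of the 10 tiles with the largest falls, the 12 with the largest rises and the 8 with the highest XaXa level, as rows, in all 13 libraries as columns, with XaXa at the left and MEF at the right. White cells have under 10 reads, and blank rows separate the 3 kinds. The fallen tiles are at most 31.6% in other iPSC libraries and at least 63.2% in SSEA1 libraries.

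Promoter gains were few and partial. The 19 higher promoters lay at 15 separate loci, because 4 pairs overlap and share CpGs. Cavin4, a coat protein of muscle caveolae, was at 61.8% and 48.9% in XaXa 7 and 8 against 0% and 15.6% in MEF 4 and 5, up by 47.6 points (quasi-binomial adjusted p = 0.0427). Just 1 of its CpGs was read in all 4 libraries, and the part of this in its rise was not tested. Abcc9, a regulatory subunit of ATP-sensitive potassium channels, was at 50.7% and 42.1% in XaXa against 8.57% and 0.599% in MEF, and Ogfod2 at 34.9% and 32.3% against 0% and 1.39%. The pair Miip and Fv1, the second a restriction factor of mouse retroviruses, was at 42.0% and 30.8% in Miip against 4.35% and 5.15%.

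The other higher promoters lay at lower levels. Hoxa11, a limb patterning gene, was at 29.4% and 26.4% in XaXa 7 and 8 against 2.57% and 2.83% in MEF 4 and 5. Nkx2-1, a homeobox gene of lung, thyroid and forebrain, was at 29.5% and 18.4% in XaXa against 2.75% and 4.22% in MEF, and was no higher than 6.19% in male iPSC, though at 50% and 14.3% in XO 3 and 5. Slc6a5, a neuronal glycine transporter, was at 26.5% and 19.4% against 1.96% and 0%, and Grik4, a kainate receptor subunit, at 14.8% and 13.3% against 0.347% and 0.573%. Ltbp1, which binds latent TGF-beta in the matrix, was at 24% and 20.2% against 0% and 1.11%, and 1810009A15Rik at 27.9% and 18% against 0% in both MEF libraries. The smallest rises, between 10.4 and 12 points, were those of Phip, B130024G19Rik, Mcub, Cltc, Zfp629 and Gm42085, and each of these calls was lost without XaXa 8, as were those of Hoxa11, Ltbp1 and Gm16001, which overlaps Ogfod2. All 3 male iPSC libraries were above both SSEA1 libraries at 12 of the 18 higher promoters read in them, beside 300 of all 4725, or 6.35%.

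Few gains were low in all other iPSC libraries. Of 669 higher tiles read in all 9 iPSC libraries, 5 were under 20% in every XO and male iPSC library, or 0.747%. The largest, on chromosome 2 at 121121140 to 121121571, 5.80 kb from Map1a, was at 32.5% and 26.6% in XaXa 7 and 8 against 3.85% and 1.49% in MEF 4 and 5. A tile on chromosome 7 at 51857243 to 51857569 was the one of the 5 that passed the one-sided test, at 21.4% and 19.3% in XaXa against 1.42% and 4.61% in MEF (adjusted p = 0.0483 in the quasi-binomial model). A tile over the promoter of Atf4, a transcription factor of the stress response, was at 21.4% and 6.27% in XaXa against 0% and 1.90% in MEF, with the XaXa libraries far apart. It was at 19.5% and 17.8% in male iPSC 1 and 2 and 14.7% in XO 5, just under the limit and above XaXa 8. Of the 5 tiles, the one on chromosome 7 was still called without MEF 5 and the other 4 were not.

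Imprinted control regions, which are methylated on a single parental copy, did not resist the loss. Over 19 of 21 windows with enough reads, the mean level was 15.4% and 10% in XaXa 7 and 8 against 45.5% and 48.3% in MEF 4 and 5. Group means were 12.7% ± 3.76 in XaXa and 46.9% ± 2.02 in MEF (SD, n = 2 each), at -34.2 points (exact permutation p = 0.333, the smallest possible) and -32.7 points without MEF 5. The ratio was 0.271, beside 0.577 in tiles at 20% to 80% in MEF and 0.358 in those of them with 21 or more CpGs. In the tile model 16 windows were lower and none higher, beside 67.8% and 0.810% of all tiles, and 12 were lower without MEF 5. The median difference was -32.6 points in the windows and -29.4 points over all tiles. The mean over windows was 42.6% to 57.2% in male iPSC and 16.4% to 38.3% in XO.

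Among windows methylated on the maternal copy, Nap1l5 fell by the most, with 6.57% and 4.35% in XaXa 7 and 8 against 97.3% and 82.4% in MEF 4 and 5, levels in MEF that are above those of a single methylated copy and rest on few reads (37 in MEF 4). Mcts2, a retrogene within the intron of another gene, was at 1.71% and 2.06% in XaXa against 53.1% and 68.8% in MEF, -59.0 points (quasi-binomial adjusted p = 3.27e-08). Airn/Igf2r, where methylation silences the antisense RNA on the maternal copy, was at 15.2% and 15.1% against 86.0% and 55.7%. Nnat, a neuronal membrane protein gene, was at 9.30% and 7.54% against 63.1% and 55.4%, and Zrsr1, which encodes an RNA-binding protein, at 13.3% and 8.87% against 67.8% and 53.5%. Grb10, an adaptor of growth factor receptors, was at 10.9% and 7.55% against 39.2% and 49.4%.

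Inpp5f differed by -46.9 points, Impact by -33.9, Slc38a4 by -32.6, Kcnq1ot1 by -27.6, Snrpn by -25.6, Gnas 1A by -20.8 and Nespas/Gnasxl by -16.9. H19, methylated on the paternal copy, was at 30% and 16.5% in XaXa 7 and 8 against 88.9% and 59.5% in MEF 4 and 5, from 40, 278, 18 and 37 reads. The calls of Kcnq1ot1 and Slc38a4 were lost without MEF 5, that of Slc38a4 also without XaXa 8.

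Residual methylation was highest at Peg13, with 43.5% and 25.4% in XaXa 7 and 8 against 52.2% and 42.0% in MEF 4 and 5. Its groups overlap, and its call at -12.7 points was lost with XaXa 8, MEF 4 or MEF 5 left out. Plagl1, a zinc finger gene, was at 35.1% and 9.86% in XaXa against 0% and 42.3% in MEF, with the libraries of each group far apart, and was not called. It was called lower without XaXa 7, at -11.3 points, and without MEF 4, at -19.8 points. Mest and Peg3 differed by -15.0 and -16.8 points and missed the threshold (quasi-binomial adjusted p = 0.0893 and 0.0724). Peg10 was called at -16.5 points, but MEF 4 was at 0% of 14 reads and MEF 5 at 49%, and without MEF 5 the difference was 8.02 points. The Meg3 and Rasgrf1 windows had too few reads.

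**Figure D5:**
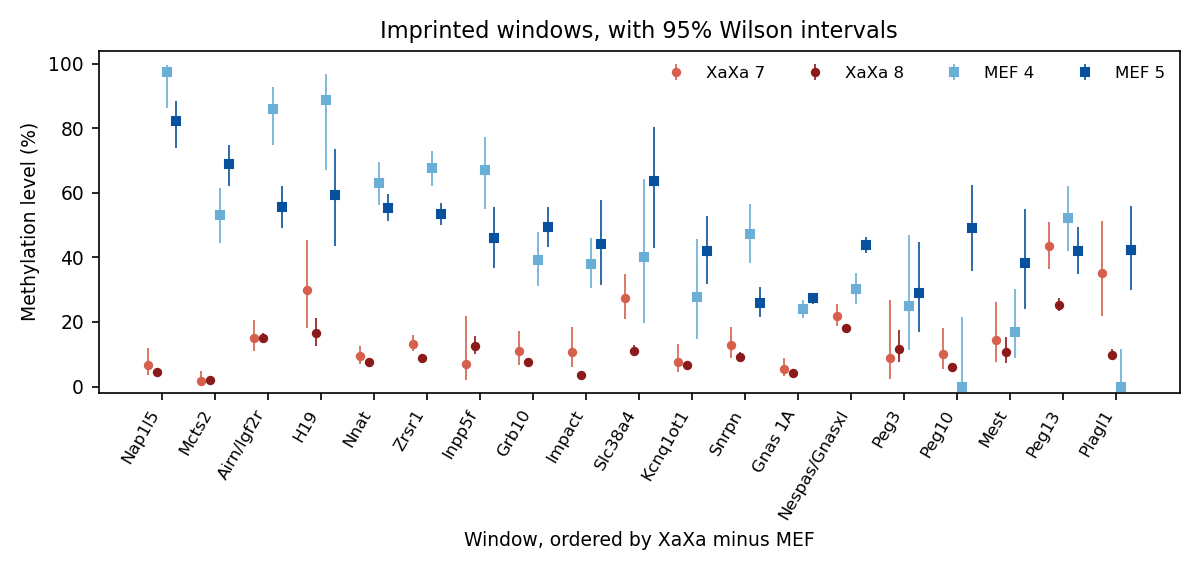
Methylation level (y axis, %) of 19 windows at imprinted control regions (x axis, ordered by XaXa minus MEF) in XaXa 7, XaXa 8, MEF 4 and MEF 5. Points are libraries and bars 95% Wilson intervals, which cover counting error only. At Mcts2 XaXa is at 1.71% and 2.06% and MEF at 53.1% and 68.8%, while at Peg10, Peg13 and Plagl1 the groups overlap.

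Called shares in gene clusters are read against 67.8% lower and 0.810% higher over all tiles. In the clustered protocadherins, cell adhesion genes whose alternative promoters are methylated in somatic cells, 82 of 106 tiles, or 77.4%, were lower and none higher, at 20.7% ± 3.5 in XaXa and 52.9% ± 1.07 in MEF (SD, n = 2 each). In the zinc finger gene cluster of distal chromosome 4, 74 of 90, or 82.2%, were lower, at 35.4% ± 5.22 in XaXa and 64.5% ± 0.0464 in MEF (SD, n = 2 each). A tile there at 145427005 to 145427747 with 52 CpGs was at 3.88% and 2.19% in XaXa 7 and 8 against 76.8% and 72.6% in MEF 4 and 5.

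Hox clusters, developmental genes with little methylation in either cell type, changed in both directions. Lower tiles were 15 of 51 in HoxA (29.4%), 6 of 49 in HoxB (12.2%), 5 of 47 in HoxC (10.6%) and 9 of 44 in HoxD (20.5%), and higher tiles were 5 in HoxB and 3 in HoxC. These shares of higher tiles, 10.2% and 6.38%, stand beside 0.810% over all tiles and 2.98% of those under 20% in MEF, to which most Hox tiles belong. Lower tiles made up 5.01% of that class. This is under the share in each Hox cluster, where tiles above 20% in MEF are counted too. On chromosome 11 at 96172047 to 96172994, in HoxB, the level was 60.9% and 40.7% in XaXa 7 and 8 against 0% and 7.32% in MEF 4 and 5 (quasi-binomial adjusted p = 0.00286), while the tile at 96110058 to 96110337 of the same cluster was at 23.3% and 15.8% in XaXa against 94.3% and 93.8% in MEF. In HoxC, 2 tiles on chromosome 15 at 102793028 to 102793907 and 102780077 to 102780993 rose by 25.4 and 21.8 points. Both HoxC calls were lost without MEF 4 and without MEF 5, the HoxB rise was lost without MEF 5, and none of the 3 passed the one-sided test (adjusted p = 0.275 to 0.894 in the quasi-binomial model). In HoxA, a tile on chromosome 6 at 52113295 to 52113929 fell to 6.02% and 8.01% in XaXa, against 76.8% and 47.0% in MEF. No HoxA tile was called higher, but the Hoxa11 promoter, measured apart from the tiles, was, and that call was lost without XaXa 8.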

How the data were processed

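Methylation was measured by RRBS in 13 libraries, 4 of which were compared here. Per the file headers, the authors deposited for each CpG raw counts of all reads and of methylated reads, in total and by strand, and the methylated fraction, which was not used. The submitters' processing notes name BSMAP and mm9. Its version and any trimming or filter are not given in sources used here. PCR copies cannot be told apart in RRBS and a read counts at each CpG it spans, so Wilson intervals (95%) cover counting error only and are too narrow. Coordinates are mm9 as deposited, written from 1, save those of RefSeq sequences (GRCm38.p6).

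Counts were summed over CpGs in 1 kb tiles, windows and promoters with at least 3 CpGs and 10 reads in each of the 4 libraries; other libraries count where a feature has at least 10 reads. The test was quasi-binomial, on methylated against unmethylated counts with a term for group, its dispersion kept at 1 or above and moderated across tiles (limma squeezeVar), with an F test and Benjamini-Hochberg adjustment over all features; windows were fitted together with all tiles. It was also run on simulated data with a common spread for all tiles. The outcome is not reported here and vouches for no call. Group means weigh libraries equally, while the model weighs deep libraries more. Window positions in mm9 come from general knowledge. Of 31396 autosomal promoters in the RefSeq table, 11570 were placed by the spacing and context of their CpGs, each with another placed promoter within 2 Mb at the same shift to 1 kb. The design foresaw gene lists only with an annotation of mm9; this placement took its place.

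Named tiles are the 10 largest falls and 12 largest rises among called tiles with at least 5 CpGs and 50 reads in each library and no overlap, the 8 highest XaXa means among tiles of that depth at 80% or more in MEF, overlapping or not, each measurable window, and up to 3 called tiles of a cluster; promoters, bins and the 5 gains low elsewhere were chosen after their values were seen. Members and lists were chosen with earlier results of these data known. Alternatives were other choices of CpGs, 50 reads, unweighted CpG means, at most 100 reads per tile, a fit over 11 libraries, limma on log2 ratios with 0.5 added, 20 points, a 5 point band, a one-sided test and leaving out each library. Software was R 4.3.3 with limma 3.58.1, and Python 3.11.15 with matplotlib 3.10.9, scipy 1.17.1, pandas 2.3.3 and numpy 2.4.6.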

Additional observations from a re-analysis of the deposited data

How the results depend on the processing

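The mean difference kept its sign in every setting run. On tile levels it was -31.7 to -24.7 points with 1 library left out, and on imprinted windows -36.8 to -31.5. The number of lower tiles was 39696 to 74395 with 1 library left out, 20153 of 33981 at 50 reads and 6577 of 10407 on CpGs with 10 reads in all 4 libraries, where fewer tiles were tested. Higher tiles numbered 350 to 1094 with 1 library left out, 363 at 50 reads, 128 on CpGs with 10 reads in all 4 libraries and 93 in the one-sided test chosen after seeing the data. With limma, 56989 tiles were lower and 709 higher. Retained tiles numbered 118 to 1090 with 1 library left out, 25 at 50 reads, 15 of 4196 on CpGs with 10 reads in all 4 libraries and 47 within 5 points. The cause of these moves was not tested. All 94 values of the 10 named lower tiles under the alternatives kept their call, and 110 of 112 of the 12 named higher tiles.

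Values that changed sign with a library left out were small or uncertain. The range was -13.7 to 1.24 points for the second, -8.57 to 4.70 for the sixth and -13.5 to 1.35 for the seventh of the 8 most methylated tiles. It was -41 to 8.02 for the Peg10 window, -19.8 to 22.5 for Plagl1 and -7.79 to 0.458 for the Sox2 window, and -3.45 to 0.253 for the Vim, -2.13 to 0.169 for the Sox2 and -8.56 to 11.4 for the Esrrb promoter. No paired analysis was possible because the groups compared share no replicate number. The median of 39 reads per tile in MEF 4 limits single tiles, and group sizes of 2 limit every test.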

Other observations

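Single CpGs were also grouped by the sequence around them. Among CpGs that all 4 libraries covered with 10 or more reads, those within CCGG, the sequence that MspI, the usual enzyme of RRBS, cuts, were at 41% and 34.3% in XaXa 7 and 8 against 65.6% and 67.1% in MEF 4 and 5 (55290 CpGs). Other CpGs were at 29.6% and 25.2% in XaXa against 53.5% and 55.1% in MEF (19366 CpGs). The ratio of XaXa to MEF was 0.567 in the first and 0.505 in the second. Whether CpG number nearby or place in the fragment had a part in this was not tested.

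The tiles within 5 kb of a higher tile that were not themselves higher averaged 28.0% and 22.3% in XaXa 7 and 8 against 38.3% and 39.8% in MEF 4 and 5. Of these 974 tiles 38.3% were called lower, beside 67.8% of all tiles. Their MEF mean was 39.0%, beside 61.0% over all tiles, so they had less to lose. The part of this in the smaller share was not tested.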
